A study of Rattus norvegicus with 16 samples.

Results

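Ccl17, Ccl22 and Ccr4 are the genes of a chemokine pair and of the receptor that the pair shares. They were chosen on their measured levels in the arrays described here, so their levels and differences are given as a description, with no test. They are 3 of the 20643 genes that carried 1 symbol on the array, and each was read by 1 transcript cluster, the unit for which the array reports a signal.

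CCL17 and CCL22 are small secreted proteins of the CC chemokine family that bind CCR4, a G protein-coupled receptor. CCR4 is known from T helper 2 cells, regulatory T cells and skin-homing T cells, and in the mouse thymus it is carried by thymocytes that have passed positive selection and enter the medulla, where dendritic cells (DCs) and epithelial cells make its ligands. In DCs the ligand genes are known to respond to interleukin 4 and GM-CSF, and to signals such as CD40 that act through NF-kB.

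Male Lewis rats were the source of the sorted cells, with 4 populations taken from the thymus and the same 4 from the spleen, 2 arrays per population and 16 arrays in all. The labels name no genetic change and no treatment for any group. Living cells (PI-, CD45+) were gated as MHCII+CD103+CD172a- for type 1 conventional DCs (cDC1) and as CD103+CD172a+ for type 2 (cDC2). The CD103- DC-like population was CD45R- and CD172a+, and macrophages were CD45R- and stained by HIS36, an antibody to rat macrophages. Splenic DCs came from a density gradient, thymic DCs from magnetic selection for MHCII, and macrophages of both organs from the same selection for CD11b/c, so for the DC populations organ and isolation cannot be told apart. Whether the 2 arrays of a group hold RNA of different animals was not stated in the labels, and the p-values below then measure only the spread between these samples.

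Signals are on a log2 scale, on which a difference of 1 is 2-fold. A group mean under 5.73 was taken as background, the 95th percentile of the group means of 1161 olfactory receptor clusters, and 39.3% of all clusters were under it in every group. Markers were set against the gates. The 5 cDC1 markers averaged 15.05 in thymic and 15.76 in splenic cDC1 and at most 11.26 in any other group, and the 9 macrophage markers averaged 16.35 in thymic and 16.28 in splenic macrophages. The 4 measured cDC2 markers did not separate cDC2 (13.09 in thymus, 13.05 in spleen) from CD103- cells (13.89 and 13.40), and averaged 12.78 and 11.87 in macrophages. Macrophage markers were also above background in the CD103- cells, where they averaged 12.06 in thymus and 10.09 in spleen. The 3 conventional DC markers (Flt3, Zbtb46 and Itgae) averaged 8.15 in thymic and 9.75 in splenic CD103- cells. They averaged 11.9 and 12.6 in thymic and splenic cDC2, and 6.35 and 8.40 in thymic and splenic macrophages. Itgae codes for CD103, on which the cells were gated. The labels are used as given, and the terms DC populations and DC groups include the CD103- DC-like cells, whose markers do not establish them as DCs.

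Ccl17 and Ccl22 lie on rat chromosome 19, separated in RefSeq's gene order (assembly GRCr8) only by Cx3cl1. The 250 bases before each start site, read on the minus strand, are shown because these genes had among the largest organ differences on the array and because the genes of their known regulators are described below. They span chr19:10209896-10210145 for Ccl17 and chr19:10270360-10270609 for Ccl22, and capitals mark motif matches.
Ccl17: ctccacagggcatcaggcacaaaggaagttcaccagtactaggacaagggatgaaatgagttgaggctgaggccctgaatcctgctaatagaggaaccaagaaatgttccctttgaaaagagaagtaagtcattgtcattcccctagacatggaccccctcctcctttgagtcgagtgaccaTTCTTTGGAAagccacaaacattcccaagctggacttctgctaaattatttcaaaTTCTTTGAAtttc
Ccl22: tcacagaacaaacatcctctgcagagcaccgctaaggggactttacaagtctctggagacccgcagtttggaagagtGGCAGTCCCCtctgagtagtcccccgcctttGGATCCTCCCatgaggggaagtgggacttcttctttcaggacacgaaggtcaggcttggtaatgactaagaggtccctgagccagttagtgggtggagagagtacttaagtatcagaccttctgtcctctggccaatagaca
The Ccl17 stretch held the letters of a STAT6 site (TTC and GAA with 4 free bases between them, the same on both strands) at positions -68 to -59 from the start, and those of the related GAS element (the same with 3 free bases) at -13 to -5. Of 33469 RefSeq rat promoters of the same length, 6.25% held the first and 7.67% the second. The Ccl22 stretch held a loosely defined kappa B site (GGG and CC with 5 free bases between them) on its opposite strand at -173 to -164 and -142 to -133, a motif that 42.3% of promoters held. An ETS-IRF composite (GGAA and GAAA with 2 free bases between them, in 2.48% of promoters) and TATAAA (in 12.9%) were searched on both strands and matched neither stretch. The GC content was 44.4% for Ccl17 and 52.4% for Ccl22. A match describes letters only, and none was tested as a binding site.

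Ccl17 signal was high in every thymic population and low in every splenic one. The 2 thymic CD103- arrays read 16.12 and 16.21, thymic cDC1 read 14.93 and 15.35, and thymic cDC2 read 14.29 and 14.10. Thymic macrophages read 13.73 and 12.66, the widest spread between replicates for this gene (SD 0.76). All of these arrays lay above all splenic ones, and the 4 thymic populations did not overlap with one another. In the spleen, CD103- cells read 8.45 and 8.12, and cDC1 read 7.01 and 6.15. Splenic cDC2 read 6.86 and 6.51, and splenic macrophages 6.49 and 6.64. The splenic cDC1, cDC2 and macrophage arrays overlapped and cannot be ordered, while the splenic CD103- arrays were above them.

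Ccl22 signal was high in thymic cDC1, cDC2 and CD103- DC-like cells but not in thymic macrophages. Thymic cDC1 arrays read 18.21 and 18.59, thymic cDC2 18.15 and 17.97, and thymic CD103- cells 16.43 and 16.27. The cDC1 and cDC2 arrays were 0.34 apart on average, close to the cDC1 spread (SD 0.27), and both were above the CD103- cells. Splenic CD103- cells read 10.44 and 9.96, the highest splenic values. Splenic cDC1 read 8.52 and 7.58, thymic macrophages 7.85 and 8.11, and splenic cDC2 7.90 and 6.88. These 3 groups overlapped. Splenic macrophages read 5.43 and 5.45, at background.

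**Figure D1:**
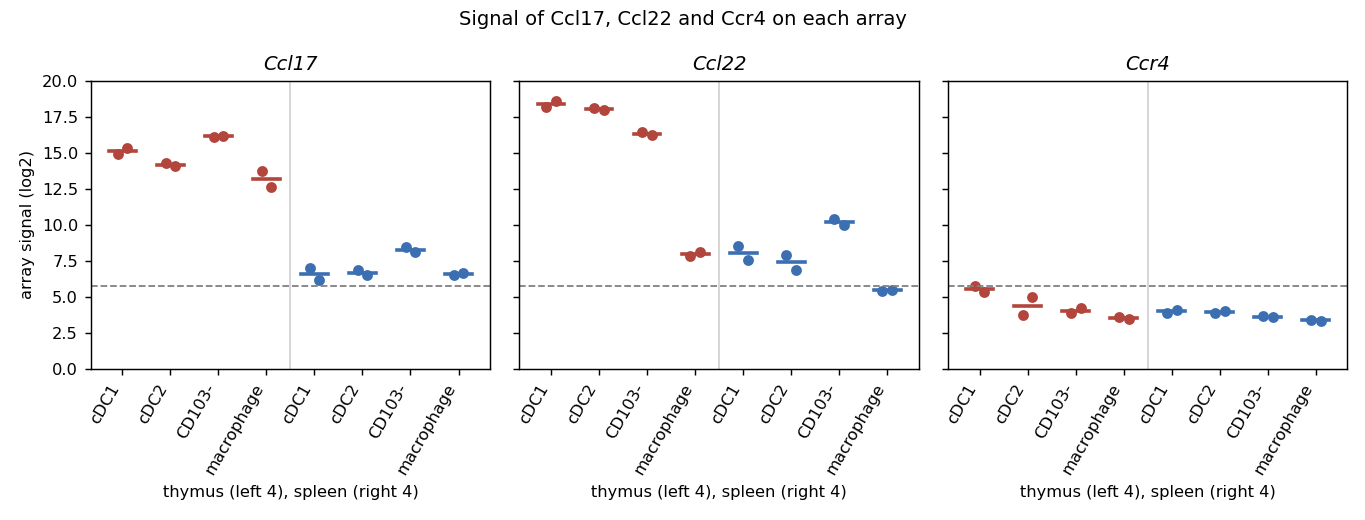
Array signal on a log2 scale (vertical axis) of Ccl17, Ccl22 and Ccr4 in the 4 populations of thymus (red) and spleen (blue). Points are the 2 arrays of a group, bars their mean, and the dashed line the background level of 5.73. Ccl17 was high in all 4 thymic groups, Ccl22 in thymic cDC1, cDC2 and CD103- DC-like cells, and all group means of Ccr4 were under the line.

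Ccr4, the receptor, was at background in all 8 groups, so no difference between groups is given for it. Its highest values were the thymic cDC1 arrays, at 5.74 and 5.30, of which the first was just above the background level. The other 14 arrays lay between 3.33 in a splenic macrophage array and 4.97 in a thymic cDC2 array. Ccr8, another chemokine receptor of T helper 2 and regulatory T cells, was at background in all 8 groups, as were Ackr2, which codes for a scavenger that takes up both ligands, and Foxp3, the transcription factor of regulatory T cells. Il2ra, the interleukin 2 receptor alpha chain, was above background in the 6 DC groups at 5.85 to 6.93 and at background in both macrophage groups.

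Between the organs, Ccl17 was higher in thymus by 8.56 in cDC1, 7.51 in cDC2, 7.88 in CD103- cells and 6.63 in macrophages (standard error 0.32 for each). Among the 23188 clusters ordered by the same difference, it ranked 2, 10, 3 and 4. Ccl22 was higher by 10.35 in cDC1, 10.67 in cDC2 and 6.15 in CD103- cells (standard error 0.32 for each), where it ranked 1, 2 and 9. Each standard error comes from the model, which pools the spread of a gene over all 8 groups and then moves it toward that of the other clusters. The gene's own spread had 8 degrees of freedom and the other clusters added 9.21, so the standard error is not the gene's own spread alone. The spread within a group varied: for Ccl17 the SD was 0.76 in thymic macrophages and 0.11 in splenic ones. In macrophages the Ccl22 difference was at least 2.25, a bound because splenic macrophages were at background, and its rank was 118. Among all clusters, 6.69% were called higher in thymus in cDC1, 7.99% in cDC2, 7.12% in CD103- cells and 6.21% in macrophages, at an adjusted p under 0.05 in limma. The ranks use the contrasts on which the genes were chosen and support nothing beyond them.

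Marker transcripts of other cell types also differed between the organs. The 26 markers of T cells and thymocytes averaged 6.89 to 7.99 on thymic arrays and 5.66 to 6.29 on splenic ones, with 16, 14, 9 and 12 of 26 called higher in thymic cDC1, cDC2, CD103- cells and macrophages and 1, 1, 2 and 2 called lower. Rag1, which recombines antigen receptor genes in thymocytes, averaged 11.92 in thymic and 7.43 in splenic cDC1, and Cd3g, Zap70 and Foxp3 were at background in all 8 groups. Bcl11b was at background in all thymic groups but above it in splenic cDC2 and CD103- cells. Lck, Lat, Rag2 and Ctla4 were at background in thymic cDC2 and CD103- cells. Of 8 measured thymic epithelial markers, 6, 3, 1 and 2 were called higher in thymus and 0, 0, 0 and 1 lower, and Psmb11 and Krt18 were at background in all groups. Their list means were 6.20 to 7.61 on thymic and 5.92 to 6.48 on splenic arrays, and the 6 fell to 3 without the first splenic cDC1 array. Of 5 B cell markers, 4 were called higher in thymic cDC1, with means of 8.08 and 9.05 on the 2 thymic and 6.31 and 7.12 on the 2 splenic arrays; 1 was called without the first thymic or the first splenic cDC1 array. In macrophages all 5 B cell markers were called lower in thymus (list means 5.84 and 9.43 in spleen), as were all 5 NK cell markers (4.90 and 6.58), of which 3 were called without the second splenic macrophage array. The part of these transcripts in the ligand differences was not tested. In sorted bulk RNA, fewer cells of a type and less RNA per cell cannot be told apart.

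For macrophages the isolation was the same in both organs, and the Ccl17 difference was 6.63 there. The markers of conventional DCs (Flt3, Zbtb46 and Itgae) averaged 6.35 in thymic and 8.40 in splenic macrophages, and 8.15 in thymic CD103- cells, which had the highest Ccl17. The 4 cDC2 markers averaged 12.78 in thymic and 11.87 in splenic macrophages, with 1 called higher in thymus, 0 lower and a median difference of -0.205. The part of transcripts from DCs in the macrophage values was not tested. Of the 3 conventional DC markers, Flt3 and Itgae were above background in thymic macrophages, and Zbtb46 was at background with a mean of 5.58. Thymic macrophages, at 13.2 ± 0.76 (SD, n = 2) for Ccl17, read 7.98 ± 0.18 (SD, n = 2) for Ccl22.

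The ligands ran in opposite directions between thymic CD103- cells and thymic cDC2. Ccl17 was 1.97 higher in thymic CD103- cells than in thymic cDC2 (standard error 0.32), whereas Ccl22 was 1.71 lower (standard error 0.32), and neither gene's arrays overlapped. In the spleen both were higher in CD103- cells, Ccl17 by 1.60 and Ccl22 by 2.81. Among all clusters, 5.34% were called higher and 4.91% lower in thymic CD103- cells, and 4.81% higher and 4.21% lower in splenic CD103- cells. The macrophage markers averaged 12.06 in thymic CD103- cells against 9.75 in thymic cDC2, and 10.09 against 7.78 in the spleen. The 5 plasmacytoid DC markers averaged 9.46 against 8.67 in thymus and 10.84 against 9.38 in spleen. Of these 5, 2 were called higher in thymic and 3 in splenic CD103- cells, and 0 lower in either. Siglech, a plasmacytoid DC marker, was at background in both thymic groups. The part of either marker list in the ligand values was not tested. Between cDC2 and cDC1, Ccl17 was 0.95 lower in thymic cDC2, and in the spleen the difference was 0.11 with overlapping arrays. Ccl22 differed by -0.34 in thymus and by -0.66 in spleen, where the arrays overlapped.

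Dpp4 codes for a surface peptidase known to trim CCL22 so that it no longer activates CCR4. Its thymic cDC2 arrays read 15.85 and 15.70 and its thymic cDC1 arrays 13.24 and 13.20, a difference of 2.56 (limma adjusted p = 3.56e-06). Thymic cDC2 were also 1.27 above splenic cDC2 (adjusted p = 0.00448, but 0.0559 without the second splenic cDC2 array), whereas thymic cDC1 were 1.40 below splenic cDC1 (adjusted p = 0.00262). The change in the cDC2 to cDC1 difference between the organs was 2.67 (adjusted p = 3.6e-04). Macrophages had lower levels, 7.43 in thymus and 9.07 in spleen (adjusted p = 5.52e-04). The difference of thymic CD103- cells from thymic cDC2 was -2.21 (adjusted p = 3.5e-05), so Dpp4 and Ccl22 were both lower there.

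Cx3cl1, the gene between the ligand genes, codes for fractalkine, a membrane-bound chemokine with a different receptor. It was above background in thymic cDC1 only, at 8.54 and 8.78, where it was at least 2.93 above splenic cDC1 (adjusted p = 1.82e-09) and thymic cDC2 (adjusted p = 3.7e-09). The ligand genes were high in thymic cDC2 and CD103- cells as well, where Cx3cl1 was at background. The 5 genes on the Ccl17 side (Ciapin1, Coq9, Polr2c, Dok4 and Ccdc102a) and 4 of the 5 on the Ccl22 side (Pllp, Arl2bp, Rspry1 and Psme3ip1, listed on the array as Fam192a) were measured. With Cx3cl1 these made 10 neighbours, of which 1 was called higher in thymic cDC1, 2 in thymic cDC2, 2 in thymic CD103- cells and 0 in macrophages, and 0 were called lower in any of the 4 comparisons. Over all clusters, 6.69%, 7.99%, 7.12% and 6.21% were called higher in these comparisons, and 5.38%, 6.6%, 5.27% and 7.53% lower. Arl2bp was 1.28 higher in thymic than in splenic cDC2 (adjusted p = 9.4e-04). The call of Rspry1 in cDC2 (0.73, adjusted p = 0.0469) was lost on leaving out any of 12 arrays. In CD103- cells the call of Ciapin1 (0.83, adjusted p = 0.038) was lost without any 1 of the 4 CD103- arrays, and that of Dok4 without either thymic or the first splenic one. Apart from Cx3cl1 in cDC1, the neighbours' organ differences were at most 1.28, against 6.15 or more for either ligand gene in the DC populations.

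**Figure D2:**
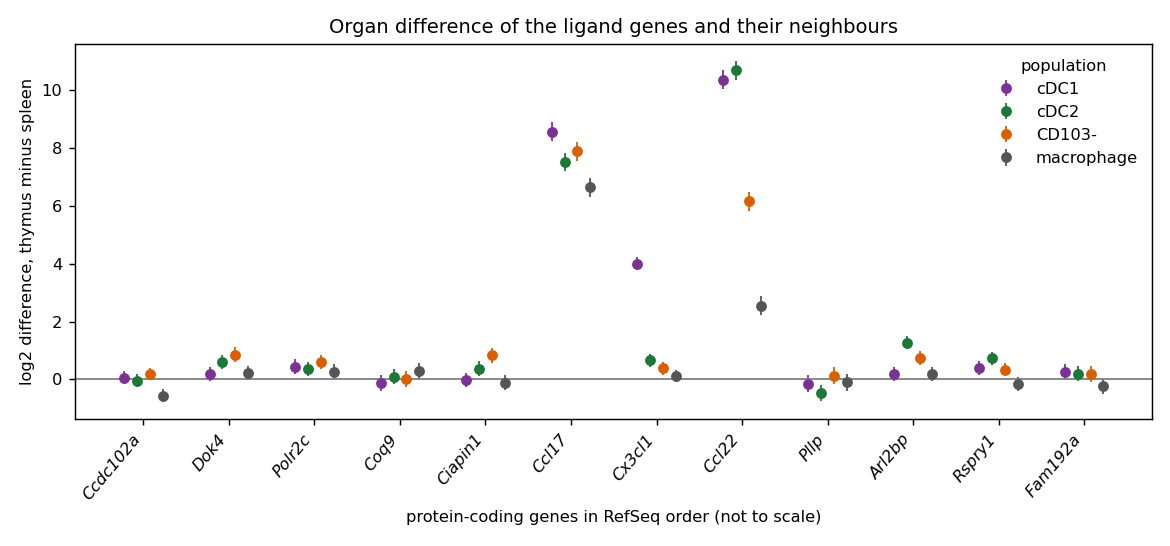
Difference between thymus and spleen on a log2 scale (vertical axis, measured group means) of Ccl17, Ccl22 and their neighbours in RefSeq order, with 1 point per population and the model's standard error as bars. Ccl17 and Ccl22 stand above their neighbours, and Cx3cl1 is raised in cDC1 alone.

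Around the ligands, 116 genes were followed in 6 lists. The lists were chosen with earlier results of these data known, so counts above the share over all clusters are not independent support. Of these lists, 3 hold cytokine and NF-kB signalling genes known to act on the ligand genes and genes of mature DCs, and 3 hold other chemokine ligands, other receptors and genes that carry the signal of such receptors. In thymus against spleen, 44 were called higher and 10 lower in cDC1, 30 and 25 in cDC2, 12 and 26 in CD103- cells, and 12 and 40 in macrophages. Among all clusters, 5.38% were called lower in thymus in cDC1, 6.6% in cDC2, 5.27% in CD103- cells and 7.53% in macrophages. The shares called higher were 6.69%, 7.99%, 7.12% and 6.21% in the same order. Both sets of shares stand beside the organ comparisons of each list below. Counts of genes called lower rested on single arrays: without the second thymic array of the population they were 6 in cDC1, 13 in CD103- cells and 26 in macrophages, without the first splenic CD103- array 14 in CD103- cells, and without the first splenic cDC2 array 16 in cDC2.

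In the type 2 cytokine and growth factor list (16 genes), 5, 4, 1 and 0 genes were called higher in thymic cDC1, cDC2, CD103- cells and macrophages, and 3, 3, 3 and 5 lower. The median differences were 0.28, 0.25, 0.09 and -0.34, beside medians over all clusters of -0.03, -0.02, -0.02 and 0.05. Without the second thymic or the first splenic CD103- array, 0 of the 3 lower calls in CD103- cells were left. Il4r, the interleukin 4 receptor alpha chain, was lower in thymus in the DC subsets with the highest Ccl22: by 1.24 in cDC1 (adjusted p = 0.00244) and by 1.80 in cDC2 (adjusted p = 5.17e-05). Stat6, which carries the interleukin 4 signal to the nucleus, was called between organs in macrophages only among these 4 comparisons, 1.39 lower in thymus (adjusted p = 1.28e-04). Irf4, a transcription factor of cDC2, was 3.31 higher in thymic than in splenic cDC1 (adjusted p = 1.42e-07). Csf2rb, the beta chain of the GM-CSF receptor, was 3.37 higher in thymic cDC2 (adjusted p = 6.92e-07) and 2.79 lower in thymic macrophages (adjusted p = 7.93e-06). Klf4, a transcription factor of myeloid cells, was called lower in thymus in all 4 populations, with a difference of -4.16 in cDC2 (adjusted p = 6.92e-07), although its CD103- call was lost without the second thymic or the first splenic CD103- array.

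In the CD40, RANK and NF-kB list (21 genes), 10 were called higher and 0 lower in thymic cDC1, against 2 and 5 in cDC2, 1 and 6 in CD103- cells, and 0 and 10 in macrophages. The medians were 0.83, -0.28, -0.76 and -0.86. The lower calls in cDC2 numbered 3 without the second thymic and 2 without the first splenic cDC2 array, and those in CD103- cells 2 without the second thymic or the first splenic CD103- array. In macrophages they numbered 5 without the second thymic, 6 without the first splenic and 4 without the second splenic array. Tnfrsf11a, which codes for RANK, read 12.19 and 12.52 in thymic and 9.18 and 7.35 in splenic cDC1, a difference of 4.09 (adjusted p = 2.99e-06). In cDC2 its difference was 3.40 (adjusted p = 1.71e-05). The cDC2 and cDC1 arrays of the 2 organs did not overlap for this gene. Cd40 was 2.32 higher in thymic cDC1 (adjusted p = 4.66e-05), and Tnfrsf1b, a receptor of TNF, was 2.56 higher (adjusted p = 5.42e-05). Relb, a subunit of the alternative NF-kB pathway, was 1.63 higher in thymic cDC1 (adjusted p = 0.00326), a call lost without the second thymic (0.074) or the second splenic cDC1 array (0.0773). Nfkb2, its partner, was 1.06 higher (adjusted p = 0.0225), and that call was lost without either thymic or the second splenic array. In macrophages, where Ccl17 was higher in thymus, Rel was 2.29 lower (adjusted p = 1.64e-05) and Birc3, a target of NF-kB, 2.26 lower (adjusted p = 8.06e-06). The B cell and NK cell markers were lower in the same comparison, as given above, and their part in these values was not tested.

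The mature DC list (30 genes) held surface, migration and survival genes known from DCs that have matured, a state in which Ccl22 is known to be expressed. In thymus, 21 were called higher and 1 lower in cDC1, 13 and 6 in cDC2, 4 and 6 in CD103- cells, and 4 and 10 in macrophages, with medians of 1.78, 0.43, -0.08 and -0.64. Ccl19, 1 of the 21, was at background in both cDC1 groups. Lamp3, also in this list, was above background in splenic cDC1 only, and Aldh1a2 in no group. The lower calls fell to 3 in cDC2 without the first splenic cDC2 array and to 3 in CD103- cells without the second thymic CD103- array. Socs2, an inhibitor of cytokine signalling, was higher in thymus by 5.57 in cDC1 (adjusted p = 5.85e-09), 5.45 in cDC2 (adjusted p = 3.17e-09) and 3.56 in CD103- cells (adjusted p = 1.06e-06). Cacnb3, a calcium channel subunit, was higher by 5.34 in cDC1 (adjusted p = 5.84e-06) and 5.40 in cDC2 (adjusted p = 3.65e-06). Fscn1, the actin-bundling protein of mature DCs, was 5.21 higher in thymic cDC1 (adjusted p = 1.71e-06). Ccr7, the receptor that guides mature DCs, was 2.65 higher in thymic cDC1 (adjusted p = 0.00174) and 3.32 lower in thymic macrophages (adjusted p = 1.78e-04), where the B cell and NK cell markers were lower too. Bcl2l1, a survival gene, was called higher in all 4 thymic populations, by 3.28, 2.40, 2.32 and 1.34. Tnfsf9 and Tnfsf4, costimulatory ligands, went the other way in cDC2, with thymus minus spleen differences of -4.46 (adjusted p = 2.46e-08) and -4.22 (adjusted p = 1.12e-05).

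**Figure D3:**
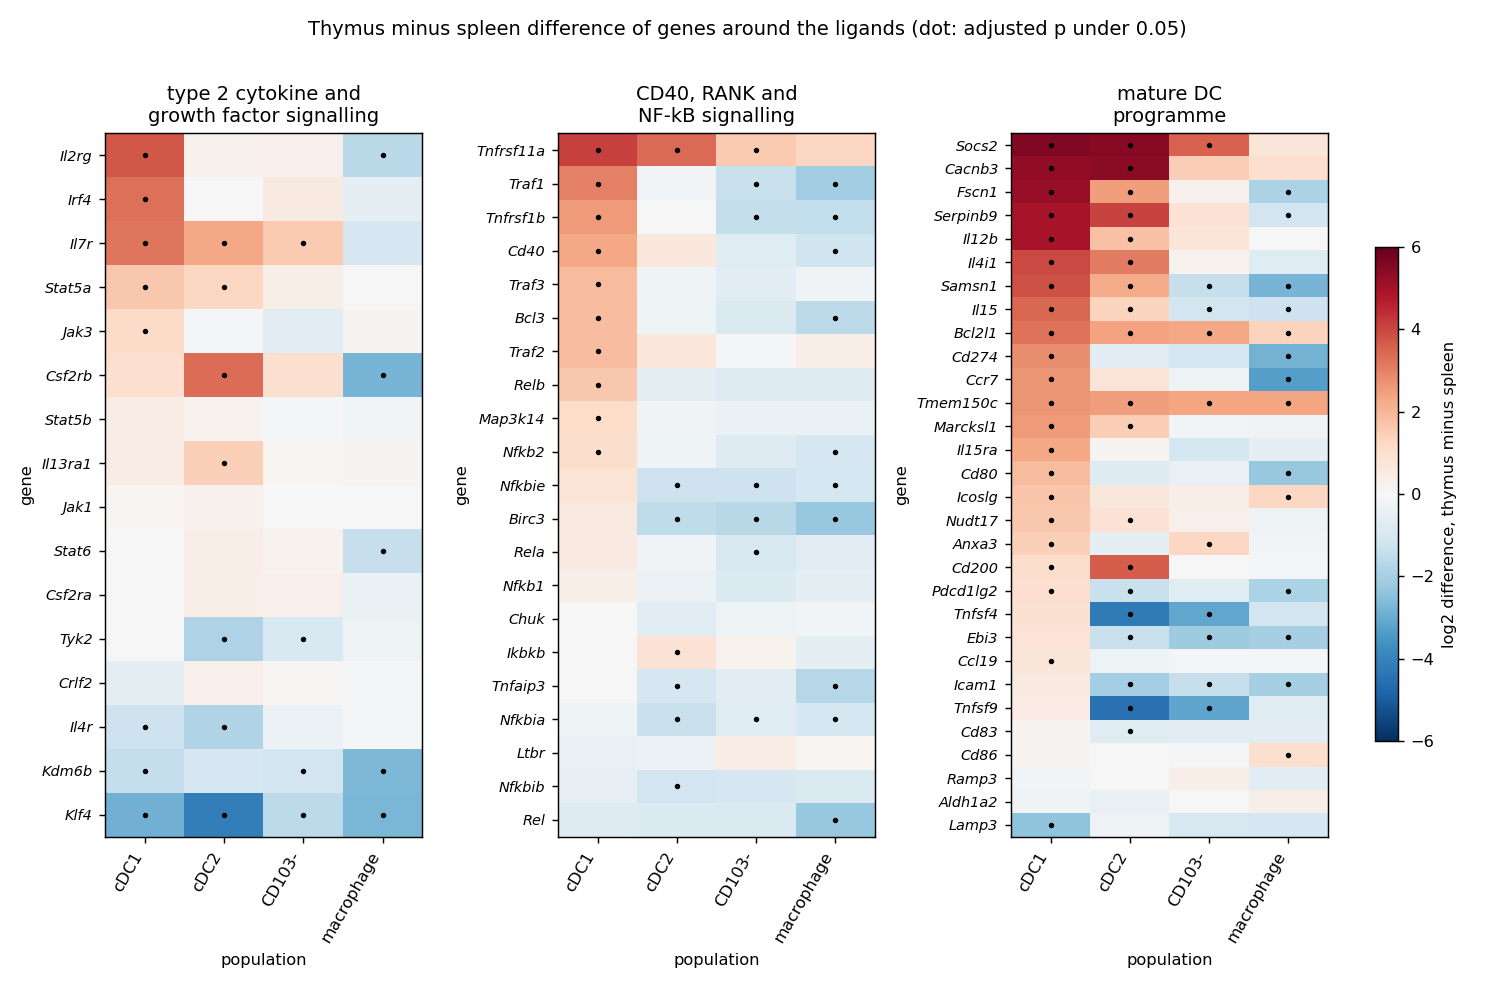
Log2 difference between thymus and spleen (colour, red higher in thymus, measured group means) of the genes of 3 lists in each population, ordered by the cDC1 difference. Dots mark an adjusted p under 0.05 in limma. The cDC1 column holds most red dots, with 10 of 21 NF-kB genes and 21 of 30 mature DC genes called higher, and the macrophage column most blue ones in the NF-kB list.

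Of 17 other CC chemokine ligand genes, 4, 6, 5 and 5 were called higher in thymic cDC1, cDC2, CD103- cells and macrophages, and 2, 0, 2 and 2 lower. The list medians were 0.29, 0.29, -0.05 and 0.27. Of the genes called higher, 2 in cDC1, Ccl19 and Ccl25, were at background in both organs, so no difference is given for them. The 4 calls in cDC1 fell to 0 without the second thymic or the second splenic cDC1 array and to 2 without either of the others, and the 5 in CD103- cells fell to 2 without the first thymic CD103- array. Ccl12, a monocyte attractant, was 5.46 higher in thymic CD103- cells (adjusted p = 1.15e-09) and 5.85 higher in thymic macrophages (adjusted p = 1.51e-10). Ccl24, which attracts eosinophils, was at least 3.84 higher in thymic cDC2 (adjusted p = 1.81e-06). Ccl6 was 5.05 lower in thymic cDC1 (adjusted p = 5.47e-10), the opposite of Ccl17 and Ccl22. Ccl5 was at least 5.18 lower in thymic macrophages (adjusted p = 2.4e-08), where the B cell and NK cell markers were lower too. Within the organs, the comparison of CD103- cells with cDC2 called 5 higher and 0 lower in thymus, and 9 higher and 0 lower in spleen, where 1 of the 9, Ccl21, was at background in both populations. Ccl3, an attractant of monocytes and T cells, was 4.24 higher in thymic CD103- cells (adjusted p = 6.89e-05) and 5.46 higher in splenic ones (adjusted p = 4.12e-06).

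Among 16 other chemokine receptors and scavengers, 3, 2, 1 and 0 were called higher and 0, 7, 6 and 9 lower in thymic cDC1, cDC2, CD103- cells and macrophages, with medians of 0.18, -0.58, -0.62 and -1.17. Ccr3, 1 of the 6 called lower in CD103- cells, was at background in both organs. The 3 higher calls in cDC1 fell to 1 without the first thymic cDC1 array, and the 9 lower calls in macrophages to 5 without the first thymic or the second splenic array. Ccr3, a receptor known from eosinophils, was at least 10.58 lower in thymic macrophages (adjusted p = 2.03e-14). Ccr1, a receptor of inflammatory ligands, was 3.48 higher in thymic cDC2 (adjusted p = 2.43e-07). Ackr1, a scavenger that binds inflammatory chemokines, was 2.52 lower in thymic cDC2 (adjusted p = 1.68e-06) and 2.70 lower in thymic CD103- cells (adjusted p = 1.49e-06). Ccr6, the receptor of CCL20, was lower in thymic cDC2, CD103- cells and macrophages, by 1.28, 1.49 and 2.53. Of 18 genes that carry or end the signal of chemokine receptors, 3, 3, 0 and 3 were called higher and 4, 4, 3 and 5 lower, with medians of -0.16, -0.02, -0.12 and -0.18. In that list the higher calls in cDC1 fell to 1 without the second thymic or second splenic cDC1 array, the lower calls in cDC1 and in cDC2 each fell to 2 on leaving out any 1 of 10 arrays, and those in macrophages fell to 2 without the second thymic or the first splenic array. Grk5, a kinase that switches off G protein-coupled receptors, was 3.84 higher in thymic cDC1 (adjusted p = 6.03e-08), and Arrb1, which codes for a beta-arrestin, was 4.28 lower in thymic cDC2 (adjusted p = 5.47e-09).

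Within the organs, the 116 pathway genes gave 24 higher and 26 lower calls in thymic cDC2 against thymic cDC1, and 38 and 15 in the splenic pair. Without the second thymic cDC1 array the thymic counts were 14 and 17. Over all clusters these shares were 6.75% higher and 6.93% lower in thymus, and 7.86% and 8.21% in spleen. In CD103- cells against cDC2 the calls were 18 higher and 16 lower in thymus, and 29 and 7 in spleen. The 16 fell to 8 or 9 without the first or second thymic cDC2 array and to 7 without the second thymic CD103- array, and the 7 fell to 4 without the second splenic cDC2 or CD103- array. The NF-kB list held 0 higher and 7 lower genes in thymic cDC2 against cDC1 and 11 higher and 0 lower in the splenic pair. The 7 fell to 4 without the second thymic cDC1 or the first thymic cDC2 array, and the 11 fell to 4 without the second splenic cDC1 and to 7 without the first splenic cDC2 array. The change of that difference between the organs was called for 10 of its 21 genes, all of them lower, and for 6.2% of all clusters in either direction. It was called for 5 of the 21 without the second thymic or the second splenic cDC1 array, and for 6 without the first thymic cDC2 or either splenic cDC2 array. For the change of the CD103- to cDC2 difference, 21 of 116 pathway genes were called, 7 higher and 14 lower, beside 3.55% of all clusters. The organ difference of cDC2 set against that of macrophages was called for 49 of 116, 37 higher and 12 lower (7 lower without the first splenic cDC2 array), beside 10.4% of all clusters. For that last contrast, Ccl17 gave 0.88 (standard error 0.46), from organ differences of 7.51 and 6.63. The splenic Ccl17 means behind these, 6.7 in cDC2 and 6.6 in macrophages, were close to the background level of 5.73, and their arrays overlapped. Ccl22, with 10.67 in cDC2, had only a bound in macrophages.

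Genes with patterns like those of the ligands were sought among 5990 genes that were above background in some group and spanned 2 or more log2 units over the 8 group means. These correlations are over 8 group means that share organ, isolation and sort, and are a description. For Ccl17 the closest were Dyrk2 (r = 0.97), Arpp21 (0.97), Atp6v0a1 (0.96), Erbb3 (0.96), Bcl2l1 (0.95) and Cd3e (0.95). Ccl22 stood at place 40 of that order (r = 0.84). For Ccl22 the closest were Slc7a11 (r = 0.98), Tiam1 (0.98), Tcf7 (0.97), Sgpl1 (0.97), Ikzf2 (0.96) and Lef1 (0.96), and Ccl17 stood at place 158. Slc7a11, a cystine transporter, averaged 16.51 in thymic cDC1, 9.09 in thymic macrophages and 11.92 in splenic CD103- cells, so it shared with Ccl22 the low thymic macrophage value and the high splenic CD103- value. Cd3e, Tcf7 and Lef1 are known from T cells, and Cd3e and Tcf7 are 2 of the 26 T cell and thymocyte markers described above. By Spearman's rho, most of the 6 closest genes of either ligand were different ones.

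**Figure D4:**
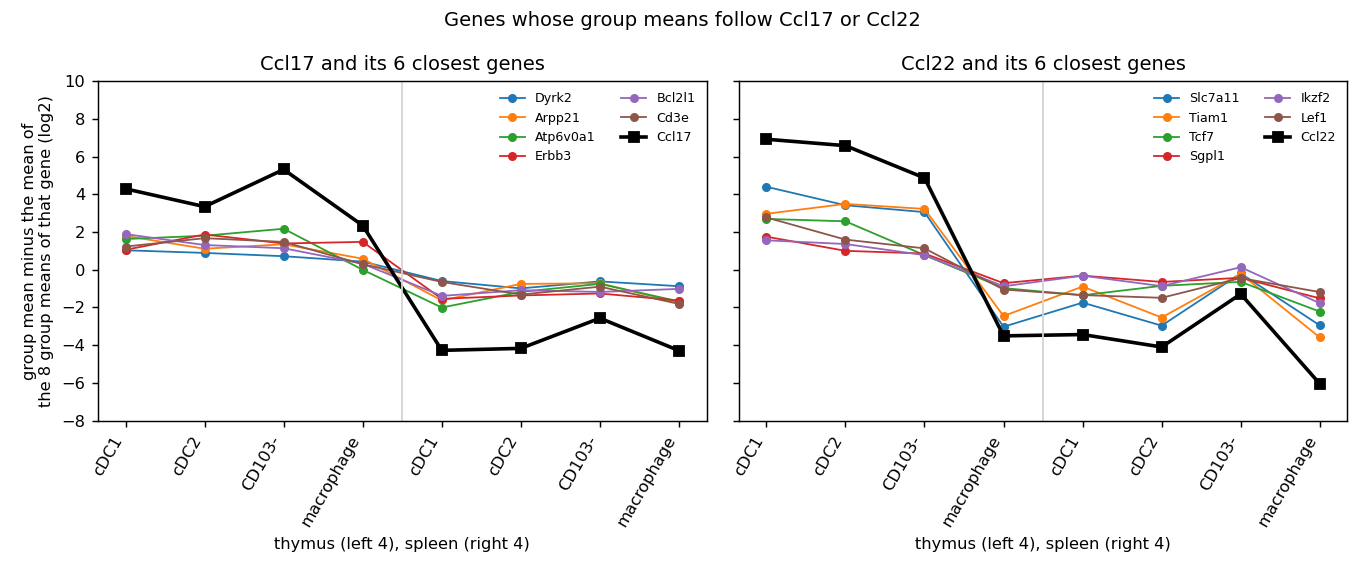
Group means of Ccl17 (left, black) and Ccl22 (right, black) and of the 6 genes closest to each, each minus that gene's own mean over the 8 groups (vertical axis, log2). Thymic macrophages lie above all 4 splenic groups for Ccl17 and its 6 closest genes, and below splenic CD103- cells for Ccl22 and its 6 closest genes.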

How the data were processed

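RNA of each sorted sample was hybridized to a rat Clariom S array, 16 in all. The deposited values were log2 signals, made with the Transcriptome Analysis Console per the submitters' processing notes; its version, normalization and background correction are not given in the sources used here. A pair of deposited tables held the same values (largest difference 0). Array medians lay between 5.87 and 5.95, so no scaling was added.

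A model with 8 group means was fitted to the 23188 clusters with limma 3.58.1 in R 4.3.3 (lmFit, eBayes). Two-sided p-values were adjusted by Benjamini-Hochberg over all clusters within each of 8 contrasts and 3 interactions, and called under 0.05. The script was tested on simulated data. The members and lists were chosen with earlier results of these data known. Genes named were the members, 14 fixed genes, the chromosome neighbours, up to 3 called genes per list, contrast and direction, the 6 closest genes per member, and cell type markers beside a result. The closest genes of Ccr4 are not reported here. Promoters are RefSeq's (GRCr8), matched by symbol for 2 of 3 members. Differences from a group at background are bounds, taken against the background level. Alternatives were scaling, variance model, array weights, samples fitted, a replicate block, a filter on dim clusters, a 2-fold rule and leaving out each array. The number of arrays limits the precision.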

Additional observations from a re-analysis of the deposited data

Results flagged for a closer look

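Ccl22 was 1.71 lower in thymic CD103- cells than in thymic cDC2 (a signed difference of -1.71) and 2.81 higher in the splenic pair, with every array of a group on the same side in each organ. The difference between the organs was not tested, since Ccl22 was chosen on these values.

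For the other genes, the difference between 2 effects was tested in the limma model. The organ difference (thymus minus spleen) of cDC2 exceeded that of macrophages by 4.07 for Ccr7 (adjusted p = 0.00102), 2.91 for Dpp4 (adjusted p = 7.86e-05), 1.81 for Cd40 (adjusted p = 0.0122) and 1.79 for Stat6 (adjusted p = 4.51e-04), and gave -1.74 for Il4r (adjusted p = 0.00323). The cDC2 to cDC1 difference, thymus minus spleen, was 2.67 for Dpp4 (adjusted p = 3.6e-04), -1.70 for Cd40 (adjusted p = 0.028), -3.29 for Irf4 (adjusted p = 2.79e-05), -2.16 for Relb (adjusted p = 0.01) and -3.34 for Cx3cl1 (adjusted p = 2.75e-06), the last from measured means that include groups at background. The CD103- to cDC2 difference, thymus minus spleen, was 1.42 for Il4r (adjusted p = 0.033).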

How the results depend on the processing

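Leaving out each array in turn moved the Ccl17 organ difference to 8.13 to 8.99 in cDC1 and to 6.10 to 7.17 in macrophages, and that of Ccl22 to 9.88 to 10.82 in cDC1 and 10.16 to 11.18 in cDC2. The splenic CD103- to cDC2 difference of Ccl22 ranged from 2.30 to 3.32. The splenic cDC2 to cDC1 difference ranged from -0.33 to 0.54 for Ccl17, with either sign, and from -1.17 to -0.15 for Ccl22. Of the member differences under scaling, the replicate block and leaving out arrays of the groups compared, 96 kept within the replicate spread and 16 did not. The replicate block could not change a difference, since every group holds an array of each replicate number. Its results are therefore among the 96 by construction.

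The count of pathway genes called ranged from 22 to 36 in thymic CD103- cells against cDC2 (34 with all arrays, 22 without the first thymic cDC2 array), from 31 to 56 in thymic cDC2 against cDC1 (50, and 31 without the second thymic cDC1 array), and from 22 to 45 in CD103- cells between organs (38, with 22 without the second thymic and 23 without the first splenic CD103- array). The other 188 recomputed counts were within 1.5 times. For the fixed genes, 2463 results kept their side of the threshold, 72 lost it and 17 gained it. Direction changed in 0 results that were called in either fit, and changes among results called in neither were not counted. Only scaling, array weights and leaving out an array of the groups compared could change a difference here. The variance model, the replicate block, the filter, the samples fitted and arrays of other groups left each difference the same by construction.

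The labels do not say that a replicate number marks a shared animal or day. Deviations of same-numbered samples correlated by 0.16 to 0.18 among the 3 splenic DC populations and by 0.17 between thymic cDC2 and CD103- cells. In the other 24 of 28 group pairs the correlation was -0.07 to 0.10. The numbers were not taken as pairs in the main fit. Pairing of DC samples within an organ was not tested, since the replicate block fits a single replicate effect to all groups. Counts of called marker genes with each array left out were added after seeing the data. With the replicate block, 6 of 636 calls were lost and 20 gained. Of the 6 genes closest to each member, Spearman's rho kept 2 for Ccl17, 1 for Ccl22 and 0 for Ccr4, and Pearson over 16 arrays kept 3 for Ccr4. Scaling shifted the median difference by at most 0.06. The alternative for members with several clusters was not run, since each had 1.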
